A study of Rattus norvegicus with 6 samples.

Results

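Integrins and their focal adhesion partners were taken from the deposited count table as the rows with an integrin alpha or beta chain name, leaving out 3 integrin-binding protein names, plus 13 named adaptor genes. This gave 41 member rows of 31368, with 40 distinct symbols because Itgae has 2 rows. Itgbl1 matched by its name, although it encodes a secreted integrin beta-like protein and no receptor chain. All 41 rows are annotated as protein-coding.

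Integrins are the cell's receptors for the extracellular matrix and, on leukocytes, for other cells. Each is a pair of an alpha and a beta chain, and talin and kindlin bind the tail of the beta chain to bring the receptor into its active form. Integrin-linked kinase, parvins, vinculin, paxillin, zyxin and focal adhesion kinase then join the receptor to actin at focal adhesions. In the kidney, integrins hold tubular cells and podocytes on their basement membranes and help release active TGF-beta, while the beta2, alpha4 and beta7 chains belong mainly to leukocytes.

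The study sequenced RNA of renal tissue from male Sprague-Dawley rats, 8 weeks old per the design text, in 3 libraries labelled CKD, from a model of chronic kidney disease, and 3 labelled Sham, the controls. Both groups carry the genotype label WT. The labels and design text do not say how the disease was induced, nor whether each library came from its own animal, so p-values measure the spread between these libraries, which may be technical.

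Total counts ran from 17240755 to 17503644 in the CKD libraries and from 15918035 to 17409090 in the Sham libraries. Proximal tubule genes were abundant in all 6 libraries: the summed proximal tubule markers ran from 6393 to 9276 CPM in CKD and from 4076 to 12730 CPM in Sham, where CPM are read counts scaled to a common library total after TMM correction. Principal cell markers summed to 182 to 290 CPM in CKD and 353 to 1273 CPM in Sham. Intercalated cell markers summed to 113 to 244 CPM in CKD and 276 to 1171 CPM in Sham. Thick ascending limb markers ran from 1067 to 2770 CPM in CKD and from 1726 to 7508 CPM in Sham. Podocyte markers ran from 130 to 231 CPM in CKD and from 83.5 to 431 CPM in Sham. The part of such make-up in the member levels was not tested. Mitochondrial transcripts took 8.83% to 10.8% of the counts in CKD, against 14.4%, 37.9% and 15.3% in Sham 1, 2 and 3. The members together took 0.327% to 0.455% of the counts in CKD and 0.215% to 0.262% in Sham. These are shares of the counts before TMM correction, whose factors ran from 1.13 to 1.19 in CKD and from 0.837 to 0.893 in Sham. With library totals alone, the median log2 fold change of CKD over Sham was 0.41 over all genes, so the gap in shares is not particular to the members.

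The leukocyte integrin chains Itgal, Itgam, Itga4 and Itgb7, and the collagen receptor chain Itga11 were higher in CKD, and no member was lower, by edgeR's quasi-likelihood test with an adjusted p under 0.05 over all genes. Of the 41 rows, 38 were abundant enough to be tested. The 5 called make 13.2% of the 38, against 3.82% of the 15371 genes tested that were called in either direction, 2.67% called higher and 1.15% called lower. At an unadjusted p under 0.05, 14 members were higher and 3 lower, against 13.5% and 10.3% of all genes. All CKD libraries were above all Sham libraries in 14 of the 38 members (36.8%) and below them in 2, Fermt2 and Zyx, where 18.8% of all genes showed the first pattern and 12.4% the second. Of the 9 tested leukocyte chains and their blood-cell adaptors 4 were called, with a median log2 fold change of 2.06, and of the 29 other members 1 was called, with a median of 0.34. Itga11, Itga2, Itgb7 and Itgbl1 passed the low-count filter through the CKD libraries alone, so a higher level there was part of what let them be tested. All of them are among the 14 members above, and Itga11 and Itgb7 are among the 5 called, so these shares rest in part on the filter. The shares over all genes include 1348 genes that passed in the same way. The median log2 fold change was 0.44 over the 38 members and -0.01 over all genes, and 0.37 and -0.06 without the genes that passed the filter in that way.

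The 5 calls depended on single libraries. None of them was kept without CKD 1, CKD 2, Sham 2 or Sham 3, where 0 members passed in edgeR and 10, 10, 18 and 12 had an unadjusted p under 0.05. Without CKD 3 the count was 6 and without Sham 1 it was 9. Calls over all genes, 587 with all libraries, moved too. They were 0, 0, 2 and 7 without CKD 1, CKD 2, Sham 2 and Sham 3, and 413 and 1711 without CKD 3 and Sham 1. With all libraries DESeq2 called 11 members (10 higher, and Fermt2 lower), while limma-voom called 0, with 17 at an unadjusted p under 0.05. Of all genes, DESeq2 called 2497 and limma-voom 195. The log2 fold changes of the 5 stayed positive with each library left out, between 1.83 and 5.01, as the plot of fold changes with each library left out shows.

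**Figure D1:**
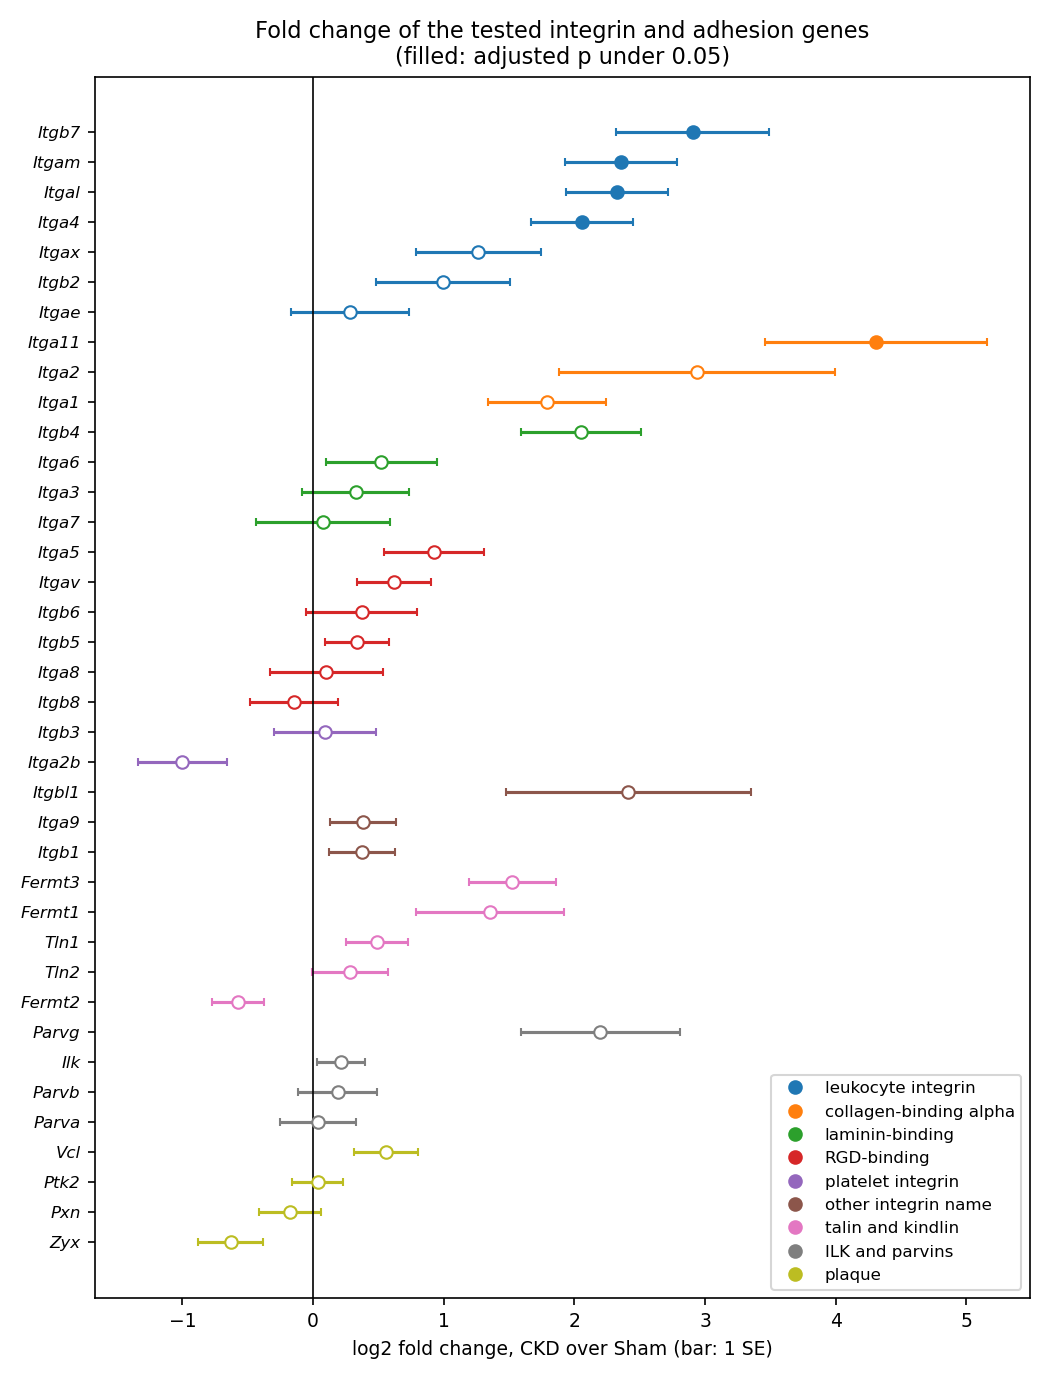
Log2 fold change of CKD over Sham (x axis) with 1 standard error for the 38 tested members, grouped and coloured by role. Filled points passed an adjusted p of 0.05 in edgeR: Itgb7, Itgam, Itgal and Itga4 among the leukocyte chains, and Itga11.

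Among the leukocyte integrins, Itgal encodes the alpha chain of LFA-1, with which lymphocytes and other leukocytes hold on to ICAM-1. It had 50.4, 40.7 and 18.7 CPM in CKD 1, 2 and 3, against 8.00, 5.80 and 8.02 CPM in Sham 1, 2 and 3. Every CKD library was above every Sham library, and CKD 3 was the lowest of its group. The log2 fold change was 2.33 ± 0.39 (SE; edgeR adjusted p = 0.0365), a fitted fold of 5.03. Without single libraries it ran from 2.03 to 2.65.

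Itgam encodes the alpha chain of the complement receptor Mac-1 of macrophages and neutrophils. It had 13.4, 12.5 and 6.20 CPM in CKD 1, 2 and 3, against 1.40, 2.52 and 2.32 CPM in Sham 1, 2 and 3. The groups did not overlap, and CKD 3 was again the lowest CKD library. The log2 fold change of Itgam was 2.36 ± 0.43 (edgeR adjusted p = 0.0394).

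Itga4 encodes the alpha4 chain, which pairs with beta1 or beta7 and binds VCAM-1 and fibronectin. It had 15.1, 15.01 and 7.48 CPM in CKD 1, 2 and 3, against 2.20, 3.28 and 3.52 CPM in Sham 1, 2 and 3. On the log2 scale Itga4 differed by 2.06 ± 0.39 (edgeR adjusted p = 0.0405). The beta7 chain, Itgb7, is its partner on lymphocytes that home to the gut, and the partner of the alphaE chain on T cells that hold on to epithelium. Itgb7 had 8.39, 11.7 and 4.40 CPM in CKD 1, 2 and 3, against 0.67, 1.89 and 0.70 CPM in Sham 1, 2 and 3. The groups did not overlap for either gene, although Itgb7 passed the low-count filter through the CKD libraries alone, which favours that pattern. Itgb7's log2 fold change was 2.91 ± 0.59 (edgeR adjusted p = 0.0441).

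The common beta2 chain of LFA-1 and Mac-1, Itgb2, did not pass. It had 40.4, 36.4 and 24.4 CPM in CKD 1, 2 and 3, against 32.2, 9.43 and 9.15 CPM in Sham 1, 2 and 3. The groups overlapped because Sham 1 lay above CKD 3. The log2 fold change was 0.99 ± 0.51 (edgeR adjusted p = 0.283), and without Sham 1 it was 1.81 (edgeR adjusted p = 0.0222), where over the 13 alternatives tried the adjusted p ran from 0.0222 to 0.561.

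Itgax, the alpha chain of the dendritic cell marker CD11c, had 32.9, 15.3 and 9.42 CPM in CKD 1, 2 and 3, against 10.002, 5.59 and 8.38 CPM in Sham 1, 2 and 3. The groups overlapped, since CKD 3 lay below Sham 1, and the log2 fold change was 1.27 ± 0.48 (edgeR adjusted p = 0.166; 0.64 without CKD 1). Itgae, the alphaE chain, had 50, 39 and 43 counts in CKD 1, 2 and 3, against 24, 37 and 17 counts in Sham 1, 2 and 3, in the row that was tested (log2 fold change 0.28 ± 0.45, edgeR adjusted p = 0.747). A second Itgae row overlaps the first and held at most 3 counts in a library, so the split of reads between the rows is uncertain. Itgad, the alphaD chain, was too low to be tested, with 41, 17 and 9 counts in CKD 1, 2 and 3, against 0, 4 and 3 counts in Sham 1, 2 and 3.

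Fermt3 and Parvg are the kindlin and the parvin of blood cells. Fermt3, which binds the tail of leukocyte and platelet integrins, had 17.2, 16.9 and 8.86 CPM in CKD 1, 2 and 3, against 4.40, 5.24 and 5.28 CPM in Sham 1, 2 and 3. Parvg had 15.5, 9.99 and 5.33 CPM in CKD 1, 2 and 3, against 3.67, 0.84 and 2.18 CPM in Sham 1, 2 and 3. In both genes every CKD library was above every Sham library. Fermt3 missed the threshold narrowly, with a log2 difference of 1.52 ± 0.33 (edgeR adjusted p = 0.0514, from 0.00124 to 0.216 over the alternatives). Parvg stood at 2.20 ± 0.61 (edgeR adjusted p = 0.0822, and from 0.00594 to 0.290).

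**Figure D2:**
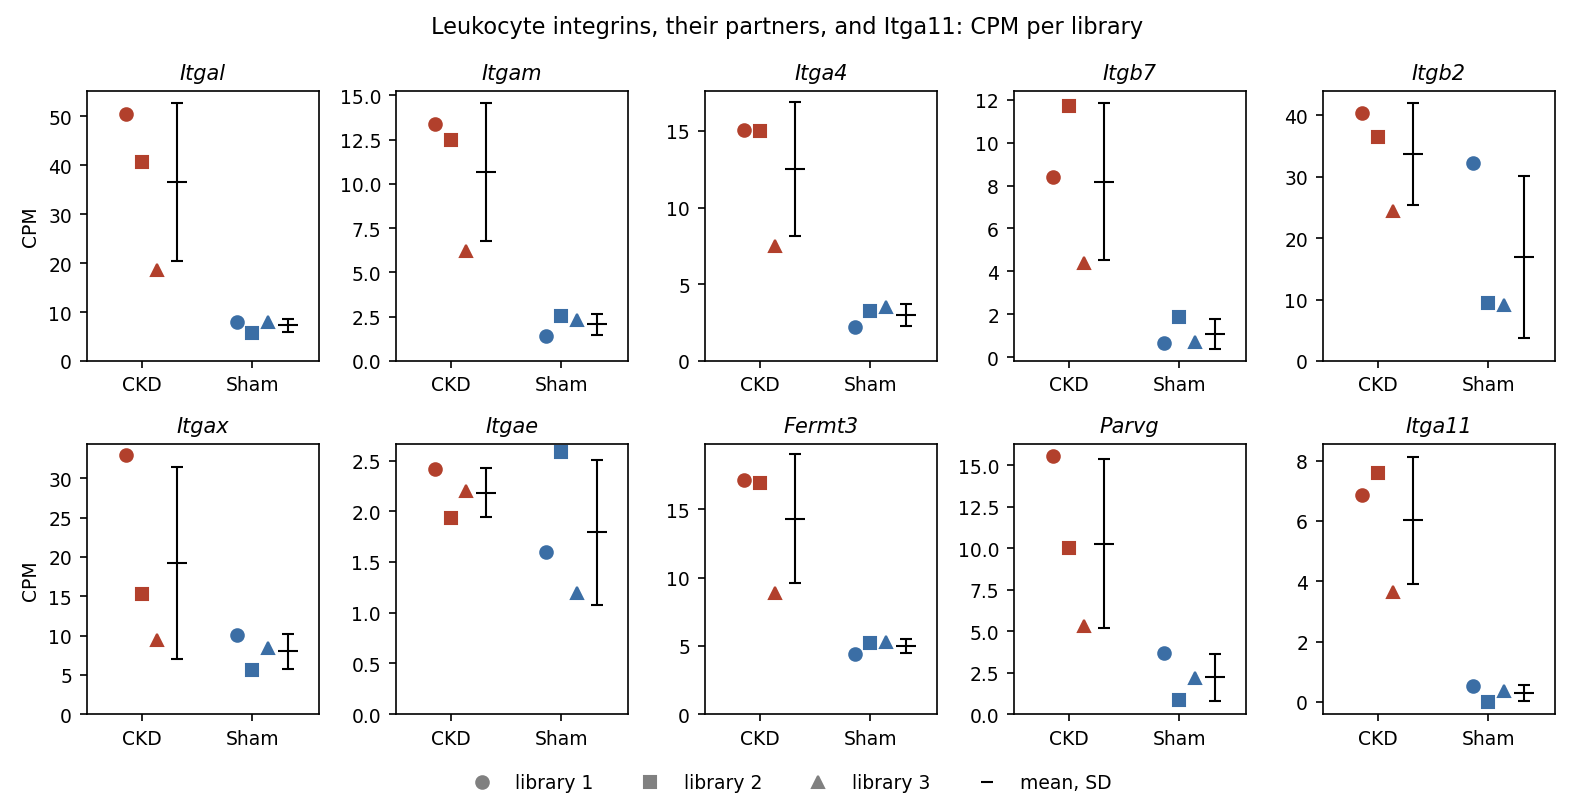
CPM (y axis, linear) of 9 leukocyte members and of Itga11 in each of the 3 CKD and 3 Sham libraries, with the mean and SD of each group in black. CKD 3 is the lowest CKD library for Itgal, Itgam, Itga4 and Itgb7 and still lies above the Sham libraries, while Sham 1 stands apart for Itgb2 at 32.2 CPM.

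The markers of leukocytes moved with these genes. The 4 pan-leukocyte markers Ptprc, Laptm5, Cd53 and Coro1a summed to 281.9, 239 and 125 CPM in CKD 1, 2 and 3, against 76.9, 55.5 and 61.4 CPM in Sham 1, 2 and 3, and 3 of the 4 were called higher. The 6 macrophage markers summed to between 189 and 380.5 CPM in CKD and between 31.0 and 103 CPM in Sham, with 3 called higher. The 4 T cell markers summed to between 10.7 and 22.9 CPM in CKD and between 3.07 and 5.33 CPM in Sham, with 1 called higher. Neutrophil markers summed to between 1.54 and 3.62 CPM in CKD and between 2.13 and 18.0 CPM in Sham, and of the pair that could be tested S100a9 had an edgeR adjusted p = 0.0537, lower in CKD, and Csf3r one of 0.731. In whole tissue a larger number of leukocytes and more RNA of these genes per leukocyte cannot be told apart.

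Set against Ptprc, which encodes the pan-leukocyte phosphatase CD45, Itgal stood at 0.721, 0.866 and 0.624 CPM per Ptprc CPM in CKD 1, 2 and 3, against 0.656, 0.444 and 0.469 in Sham 1, 2 and 3. The ranges of the groups overlapped for this ratio, and likewise for Itga4, which ran from 0.215 to 0.319 in CKD and from 0.180 to 0.251 in Sham. Itgam ran from 0.191 to 0.265 in CKD and from 0.115 to 0.193 in Sham, with a narrow overlap. Itgb2 ran from 0.578 to 0.814 in CKD, while Sham 1 stood at 2.64 and Sham 2 and Sham 3 at 0.722 and 0.535. Itgb7 ran from 0.120 to 0.249 in CKD and from 0.0412 to 0.144 in Sham, and Parvg from 0.178 to 0.222 and from 0.0642 to 0.301. Itgax and Fermt3 had lower mean ratios in CKD. Itgax ran from 0.315 to 0.471 in CKD and from 0.428 to 0.820 in Sham, and Fermt3 from 0.246 to 0.359 and from 0.309 to 0.401. Summed per gene length, the 4 alpha chains that pair with beta2 came to 2.05, 1.62 and 1.21 times the beta2 level in CKD 1, 2 and 3, against 0.493, 1.26 and 1.71 times in Sham 1, 2 and 3. These ratios are descriptions and were not tested.

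**Figure D3:**
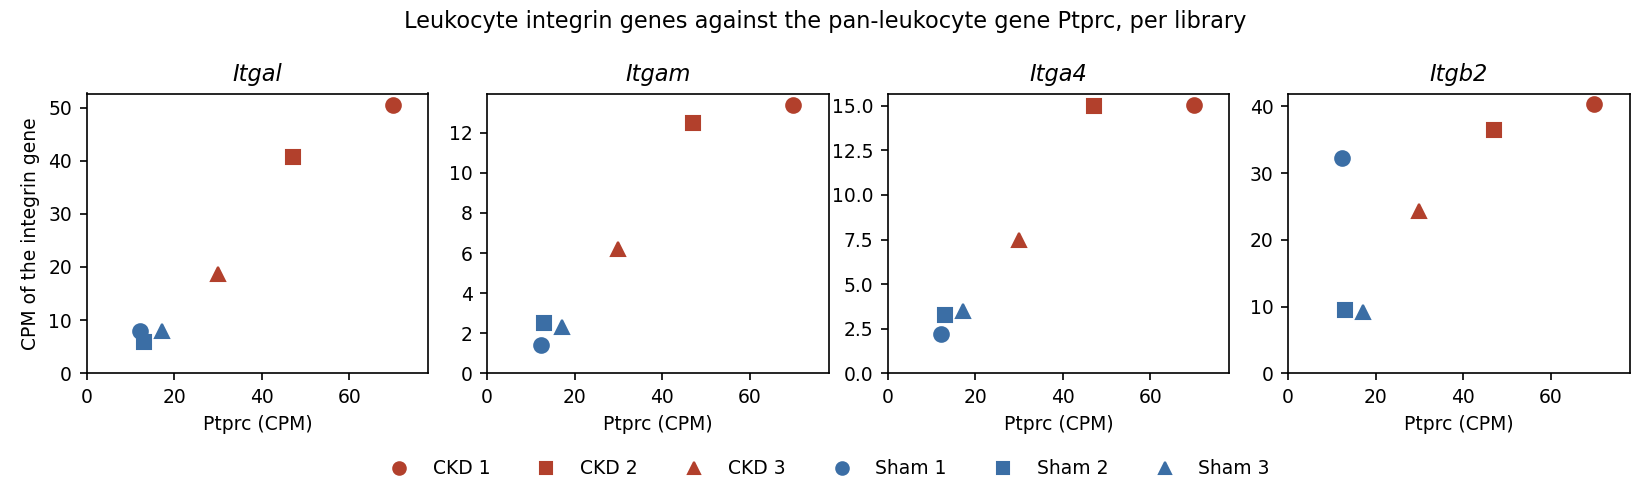
CPM of Itgal, Itgam, Itga4 and Itgb2 (y axes) against CPM of Ptprc (x axis), 1 point per library, CKD in red and Sham in blue. The CKD libraries lie above the Sham libraries on both axes for Itgal, Itgam and Itga4, and Sham 1 stands apart for Itgb2, which is 32.2 CPM beside a Ptprc level of 12.2 CPM.

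Sequence around the annotated gene start, taken as the promoter, was at hand for 30 of the 40 member symbols, among them 4 of the 5 called genes. These 4 windows are shown because the genes were higher together in CKD. Each runs from 250 bases before to 50 bases after the start of the RefSeq gene on the rat build GRCr8: Itgam at chr1:192089342-192089641 (plus strand), Itga4 at chr3:84569765-84570064 (plus strand), Itgb7 at chr7:135239022-135239321 (minus strand) and Itga11 at chr8:72041182-72041481 (plus strand). Capitals mark the 6 letters GAGGAA, the core that PU.1, a myeloid factor of the ETS family, commonly binds, on either strand (TTCCTC where it lies on the other strand).
Itgam: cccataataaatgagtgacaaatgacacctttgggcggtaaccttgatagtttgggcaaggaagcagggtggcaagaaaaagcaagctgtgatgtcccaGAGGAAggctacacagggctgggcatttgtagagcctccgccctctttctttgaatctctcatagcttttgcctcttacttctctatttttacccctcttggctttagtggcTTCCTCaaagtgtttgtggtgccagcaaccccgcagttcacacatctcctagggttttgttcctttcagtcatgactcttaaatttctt
Itga4: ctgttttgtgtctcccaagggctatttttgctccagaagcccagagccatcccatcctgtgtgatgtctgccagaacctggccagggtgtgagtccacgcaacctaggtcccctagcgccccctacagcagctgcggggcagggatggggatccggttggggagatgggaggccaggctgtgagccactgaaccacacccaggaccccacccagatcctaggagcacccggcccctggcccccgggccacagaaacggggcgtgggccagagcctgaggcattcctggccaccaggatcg
Itgb7: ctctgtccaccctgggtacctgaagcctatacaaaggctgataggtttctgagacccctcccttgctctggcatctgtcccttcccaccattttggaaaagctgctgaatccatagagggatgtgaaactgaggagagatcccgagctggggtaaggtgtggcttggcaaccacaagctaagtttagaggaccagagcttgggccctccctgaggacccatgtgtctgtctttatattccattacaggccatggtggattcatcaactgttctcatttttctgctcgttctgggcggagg
Itga11: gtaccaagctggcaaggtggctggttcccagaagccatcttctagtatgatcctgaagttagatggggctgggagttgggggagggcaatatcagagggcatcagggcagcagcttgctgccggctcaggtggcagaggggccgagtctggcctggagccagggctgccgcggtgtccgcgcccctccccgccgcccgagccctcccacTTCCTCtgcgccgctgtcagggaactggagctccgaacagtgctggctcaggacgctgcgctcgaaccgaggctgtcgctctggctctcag
Itgam holds the letters at offsets -151 (given strand) and -39 (other strand) from the start, and Itga11 at offset -41 (other strand). Itga4 and Itgb7 do not hold them in this window. In Itgb7 the 50 bases after the start open with atg, the letters of a start codon. The given start of Itgb7 may thus be its coding start, and its window may not hold its promoter. GAGGAA is common, being in 27.6% of 33469 rat promoters of the same length and in 10 of the 32 promoter entries of the members. The RUNX letters TGTGGT were in 3 of the 4 windows (Itgam, Itga4 and Itgb7, the last with the uncertain start) and in 17.3% of all promoters. The TEAD letters GGAATG were in 1 of the 4 (Itga4) and in 14.2%. The ETS letters GGAAGT were in 1 of the 4 (Itga11) and in 22.6% of all promoters, and those of AP-1, TGANTCA, were in 0 of the 4 and in 7.33%. Of the 32 member entries, 11 held the RUNX letters, 8 those of TEAD, 8 those of ETS and 1 those of AP-1. All these letters were searched on both strands, and GAGGAA and GGAAGT can share bases. A match is a description of the letters and not a site in use.

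In position, Itgam, Itgax and Itgad lie side by side on chromosome 1 in the deposited table, with 10.1 kb between the first pair and 19.0 kb between the second. Parvb and Parvg are neighbours on chromosome 7, 10.4 kb apart. Parvb, the parvin of other tissues, had 15.1 to 18.3 CPM in CKD and 9.43 to 19.9 CPM in Sham, and its groups overlapped (log2 fold change 0.19 ± 0.30, edgeR adjusted p = 0.752). The 5 called genes overlap no other row of the table. In contrast, Fermt3, Ilk, Itga1, Itga7, Itgae, Itgb4, Tln1 and Zyx each overlap an expressed gene, so that their counts are less certain.

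Of the 4 alpha chains that make collagen receptors with beta1, 3 were tested, and Itga11 was called. All CKD libraries lay above all Sham libraries in these 3, as in 18.8% of all genes. Itga11 and Itga2 passed the low-count filter through the CKD libraries alone, which favours that pattern. Itga11, the chain of the receptor for fibrillar collagen on fibroblasts, had 142, 153 and 71 counts in CKD 1, 2 and 3, against 8, 0 and 5 counts in Sham 1, 2 and 3. In CPM these were 6.85, 7.60 and 3.64 in CKD and 0.53, 0 and 0.35 in Sham. Its log2 fold change of 4.31 ± 0.85 (edgeR adjusted p = 0.0426) was the largest of the 38 members. It rests on few counts in Sham and ran from 3.70 without Sham 2 to 5.01 without Sham 1, and the call was also lost without CKD 3 (edgeR adjusted p = 0.0574).

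Itga1, the receptor chain for basement membrane collagen, was the most abundant of the 4 per gene length. It had 216, 127 and 102 CPM in CKD 1, 2 and 3, against 57.7, 20.0 and 50.8 CPM in Sham 1, 2 and 3. The lowest CKD library was above the highest Sham library, and the log2 fold change was 1.79 ± 0.45 (edgeR adjusted p = 0.0685). It was called without Sham 1 (2.03, edgeR adjusted p = 0.0492), and over the alternatives its adjusted p ran from 0.00353 to 0.236. The gene Pelo lies inside Itga1 on the same strand, so reads of the shared stretch are uncertain. Itga2, its neighbour 31.7 kb away, had 59, 35 and 17 counts in CKD 1, 2 and 3, against 0, 9 and 1 counts in Sham 1, 2 and 3 (log2 fold change 2.94 ± 1.06, edgeR adjusted p = 0.148; 5.42 without Sham 2). Itga10 was not tested, with 6, 23 and 12 counts in CKD and 9, 4 and 0 in Sham.

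The summed fibroblast markers, and the summed mesangial and mural markers, were also above the Sham libraries in every CKD library. The fibroblast markers Pdgfra, Dcn and Lum summed to 387.9, 446.8 and 279.8 CPM in CKD 1, 2 and 3, against 204, 11.8 and 99.0 CPM in Sham 1, 2 and 3. The 3 mesangial and mural markers summed to between 142 and 169 CPM in CKD and between 73.4 and 96.2 CPM in Sham, although Rgs5 by itself overlapped between the groups (log2 fold change 0.17). The smooth muscle markers Acta2, Myh11 and Cnn1 overlapped too, summing to between 55.1 and 85.2 CPM in CKD and between 59.9 and 110.5 CPM in Sham. Of the mesangial and mural markers, Pdgfrb came nearest to the threshold (edgeR adjusted p = 0.0570), and the fibroblast markers had adjusted p of 0.218 (Pdgfra), 0.248 (Dcn) and 0.493 (Lum). The part of these cells in the levels of Itga1 and Itga11 was not tested.

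Among the laminin-binding chains, Itgb4 encodes the beta4 chain, which pairs with alpha6 alone and anchors epithelium at hemidesmosomes. It had 58.8, 49.2 and 20.7 CPM in CKD 1, 2 and 3, against 12.3, 12.9 and 5.91 CPM in Sham 1, 2 and 3. The groups did not overlap. Its log2 fold change of 2.05 ± 0.46 lay just outside the threshold (edgeR adjusted p = 0.0538, and 0.0345 without CKD 3), with a range of 0.00107 to 0.203 over the alternatives.

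Its partner Itga6, the alpha6 chain that also pairs with beta1, had 370.6, 227 and 204 CPM in CKD 1, 2 and 3, against 179.8, 96.7 and 280.5 CPM in Sham 1, 2 and 3. Sham 3 lay above CKD 2 and CKD 3, and the log2 fold change was 0.52 ± 0.42 (edgeR adjusted p = 0.493; 0.17 without Sham 2 and 0.88 without Sham 3). Per gene length, Itga6 stood at 6.32, 4.61 and 9.83 times the level of Itgb4 in CKD 1, 2 and 3, against 14.7, 7.49 and 47.5 times in Sham 1, 2 and 3. The ranges of that ratio overlapped.

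Itga3, the laminin receptor chain of podocytes and tubules, had 149, 118 and 98.7 CPM in CKD 1, 2 and 3, against 45.7, 148 and 97.6 CPM in Sham 1, 2 and 3. Sham 1 was low and Sham 2 was as high as the highest CKD library (log2 fold change 0.33 ± 0.41, edgeR adjusted p = 0.671; -0.07 without Sham 1). Itga7, best known as the laminin receptor of muscle, ran from 15.1 to 20.8 CPM in CKD and from 5.80 to 29.4 CPM in Sham (log2 fold change 0.08 ± 0.51, edgeR adjusted p = 0.945), and Cd63, an abundant gene of the same strand, overlaps it.

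The RGD-binding chains bind the RGD letters of fibronectin, vitronectin, osteopontin, nephronectin or latent TGF-beta, and the CKD and Sham libraries overlapped in all 6. Itgav, the alphaV chain, had 281.6, 311 and 212 CPM in CKD 1, 2 and 3, against 126, 212 and 185 CPM in Sham 1, 2 and 3. CKD 3 was level with Sham 2, and the log2 fold change was 0.62 ± 0.28 (edgeR adjusted p = 0.232). Itgb6, whose product with alphaV activates latent TGF-beta on epithelium, had 127, 111 and 66.2 CPM in CKD 1, 2 and 3, against 36.1, 105 and 93.8 CPM in Sham 1, 2 and 3. Its log2 fold change of 0.37 ± 0.42 (edgeR adjusted p = 0.636) was -0.02 without Sham 1, the lowest library.

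Itgb8, the other alphaV partner that releases TGF-beta, had 159, 105 and 144 CPM in CKD 1, 2 and 3, against 196.5, 86.1 and 169 CPM in Sham 1, 2 and 3 (log2 fold change -0.15 ± 0.34, edgeR adjusted p = 0.830). Its sign turned with scaling by library totals alone (0.27), without CKD 2 (0.02) and without Sham 1 (0.05). Itgb5, the beta5 chain that binds vitronectin, ran from 185 to 205 CPM in CKD and from 116 to 189 CPM in Sham (log2 fold change 0.34 ± 0.25, edgeR adjusted p = 0.447).

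Itga5, the alpha chain of the classical fibronectin receptor, had 19.1, 15.01 and 13.0 CPM in CKD 1, 2 and 3, against 5.40, 13.1 and 6.33 CPM in Sham 1, 2 and 3. Only CKD 3 lay below a Sham library, Sham 2, and by a small margin. Its log2 fold change was 0.92 ± 0.38 (edgeR adjusted p = 0.197; 1.38 without Sham 2). Itga8, the nephronectin receptor chain of mesangial cells, had 25.3, 18.0 and 25.4 CPM in CKD 1, 2 and 3, against 8.60, 28.4 and 27.0 CPM in Sham 1, 2 and 3 (log2 fold change 0.10 ± 0.43, edgeR adjusted p = 0.912; -0.32 without Sham 1). Sham 1 was thus the lowest library for Itgav, Itgb5, Itgb6, Itga3, Itga5 and Itga8.

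Of the platelet chains, Itga2b, the alphaIIb chain of the platelet fibrinogen receptor, had 15.1, 13.4 and 23.0 CPM in CKD 1, 2 and 3, against 48.4, 31.6 and 22.8 CPM in Sham 1, 2 and 3. CKD 3 and Sham 3 were level, and the log2 fold change was -0.999 ± 0.34 (edgeR adjusted p = 0.133). The platelet markers Gp9, Gp1ba, Pf4 and Ppbp were near 0, summing to between 2.22 and 3.53 CPM in CKD and between 1.80 and 8.87 CPM in Sham. Their sum was lowest in Sham 1, the library with the most Itga2b. Itgb3, the beta3 chain of platelets and of alphaVbeta3, had 8.54, 6.76 and 4.51 CPM in CKD 1, 2 and 3, against 6.33, 4.05 and 8.23 CPM in Sham 1, 2 and 3 (log2 fold change 0.09 ± 0.39, edgeR adjusted p = 0.915).

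Itgb1, the common beta1 chain, had 477, 436 and 354 CPM in CKD 1, 2 and 3, against 312, 314 and 353 CPM in Sham 1, 2 and 3. The groups did not overlap, but CKD 3 and Sham 3 were nearly level, and the log2 fold change was 0.37 ± 0.25 (edgeR adjusted p = 0.405). It was 0.80 with library totals alone, a scaling under which the median over all genes was 0.41. Itga9, the tenascin receptor chain, had 30.6, 42.8 and 48.0 CPM in CKD 1, 2 and 3, against 36.4, 24.4 and 32.3 CPM in Sham 1, 2 and 3 (log2 fold change 0.38 ± 0.25, edgeR adjusted p = 0.393). Itgbl1, the integrin beta-like secreted protein, had 127, 94 and 90 counts in CKD 1, 2 and 3, against 24, 0 and 18 counts in Sham 1, 2 and 3 (log2 fold change 2.41 ± 0.93, edgeR adjusted p = 0.172; 1.79 without Sham 2).

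Levels between genes can be compared only per length, here as CPM per kilobase (RPKM) with the authors' gene lengths. Itgb1 was the highest member in both groups, at 114 ± 16.9 RPKM in CKD and 88.2 ± 6.26 RPKM in Sham (SD, n = 3 each). Itgb5 followed among the beta chains at 69.1 ± 3.67 RPKM in CKD and 54.7 ± 13.0 RPKM in Sham, then Itgb6 at 36.3 ± 11.3 in CKD and 28.0 ± 13.2 in Sham, and Itgb8 at 21.4 ± 4.44 in CKD and 23.7 ± 9.05 in Sham. Itgb6 and Itgb8 differed by less than the spread between libraries in Sham. Of the summed level of the 5 alphaV partners Itgb1, Itgb3, Itgb5, Itgb6 and Itgb8, Itgb1 took 44.4% to 48.2% in CKD and 41.7% to 49.3% in Sham, so this make-up overlapped between the groups.

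The 12 alpha chains that pair with beta1 summed to 206, 158 and 131 RPKM in CKD 1, 2 and 3, against 87.7, 92.7 and 119 RPKM in Sham 1, 2 and 3. Every CKD library was above every Sham library for this sum. Itga1 took 26.5%, 20.3% and 19.6% of it in CKD 1, 2 and 3, against 16.6%, 5.44% and 10.7% in Sham 1, 2 and 3, again without overlap. The shares of Itga6 (23.1% to 28.9% in CKD, 16.8% to 37.7% in Sham), Itgav (18.5% to 26.7% in CKD, 19.5% to 30.9% in Sham) and Itga3 (14.1% to 14.8% in CKD, 10.2% to 31.3% in Sham) overlapped.

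**Figure D4:**
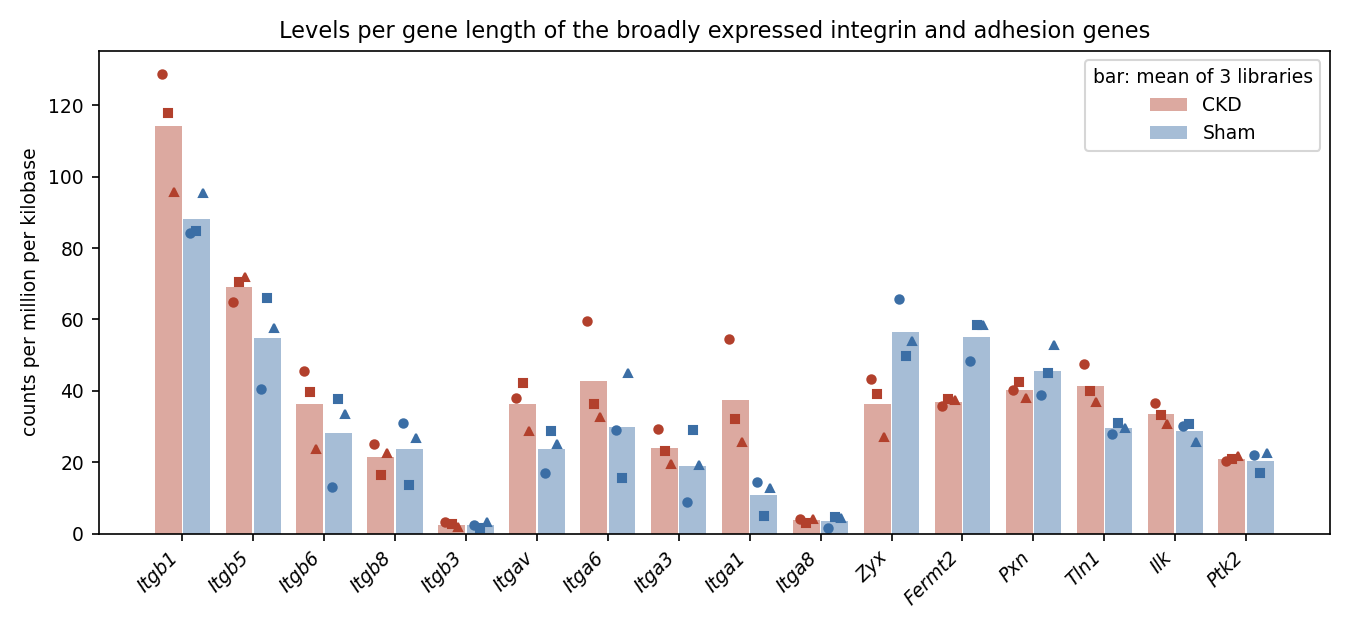
Level per gene length (y axis, RPKM) of 16 broadly expressed members, as the mean bar of 3 libraries and a point per library, CKD in red to the left of Sham in blue. Itgb1 is the highest in both groups, Itga1 stands higher in the CKD libraries, and Zyx and Fermt2 stand lower in them.

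Of the talins, Tln1, the talin of most cells, had 414, 347.7 and 320.1 CPM in CKD 1, 2 and 3, against 243, 269.8 and 257 CPM in Sham 1, 2 and 3. The groups did not overlap, yet the log2 fold change of 0.49 ± 0.24 did not pass (edgeR adjusted p = 0.253). Tln2, the second talin, ran from 56.7 to 82.2 CPM in CKD and from 40.5 to 78.3 CPM in Sham (log2 fold change 0.29 ± 0.29, edgeR adjusted p = 0.595).

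Fermt2, kindlin-2, the kindlin of most solid tissues, had 119, 126 and 125 CPM in CKD 1, 2 and 3, against 161, 195 and 195 CPM in Sham 1, 2 and 3. Every CKD library was below every Sham library, and the difference on the log2 scale was -0.58 ± 0.20 (edgeR adjusted p = 0.134). DESeq2 called it lower (-0.63, adjusted p = 0.00932), and with library totals alone it was -0.16. Fermt1, kindlin-1 of epithelium, had 83.0, 58.6 and 46.9 CPM in CKD 1, 2 and 3, against 47.9, 9.50 and 16.3 CPM in Sham 1, 2 and 3, with Sham 1 just above CKD 3. For Fermt1 the log2 fold change was 1.35 ± 0.56 (edgeR adjusted p = 0.199), and 2.24 without Sham 1 (edgeR adjusted p = 0.0233). Per gene length Fermt1 stood at 0.486, 0.325 and 0.262 times Fermt2 in CKD 1, 2 and 3, against 0.207, 0.0340 and 0.0581 times in Sham 1, 2 and 3, and the groups did not overlap in this ratio.

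Of the adaptors further inside the adhesion, Ilk, the pseudokinase that links beta chains to parvins, had 104, 95.0 and 87.5 CPM in CKD 1, 2 and 3, against 85.6, 87.5 and 73.4 CPM in Sham 1, 2 and 3 (log2 fold change 0.22 ± 0.19, edgeR adjusted p = 0.523). Parva, its parvin in most tissues, ran from 73.5 to 109 CPM in CKD and from 59.5 to 116 CPM in Sham (log2 fold change 0.04 ± 0.29, edgeR adjusted p = 0.950). Vcl, vinculin, which ties talin to actin, had 92.5, 63.3 and 53.3 CPM in CKD 1, 2 and 3, against 45.5, 44.0 and 52.4 CPM in Sham 1, 2 and 3. The groups did not overlap, although CKD 3 and Sham 3 were close (log2 fold change 0.56 ± 0.25, edgeR adjusted p = 0.217; 0.31 without CKD 1).

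Zyx, zyxin, which gathers at adhesions under tension, had 121, 110 and 75.5 CPM in CKD 1, 2 and 3, against 184, 139 and 151 CPM in Sham 1, 2 and 3. All CKD libraries were below all Sham libraries, and the difference on the log2 scale was -0.63 ± 0.25 (edgeR adjusted p = 0.178), or -0.21 when scaled by library totals only. Ptk2, focal adhesion kinase, had 99.0, 102 and 107 CPM in CKD 1, 2 and 3, against 107, 83.4 and 110 CPM in Sham 1, 2 and 3 (log2 fold change 0.04 ± 0.20, edgeR adjusted p = 0.932), and its sign turned under 4 of the 13 alternatives. Pxn, the scaffold paxillin, ran from 251 to 282 CPM in CKD and from 258 to 350.2 CPM in Sham (log2 fold change -0.18 ± 0.24, edgeR adjusted p = 0.689), and its sign turned to 0.24 when scaled by library totals only. Of the 13 adaptor genes, 0 passed in edgeR, where 3.82% of all genes did. In edgeR 5 had an unadjusted p under 0.05, of which 3 were higher and 2 lower, against 13.5% and 10.3% of all genes. In limma-voom 0 passed (195 of all genes), and DESeq2 called Fermt2, Fermt3 and Parvg (2497 of all genes).

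**Figure D5:**
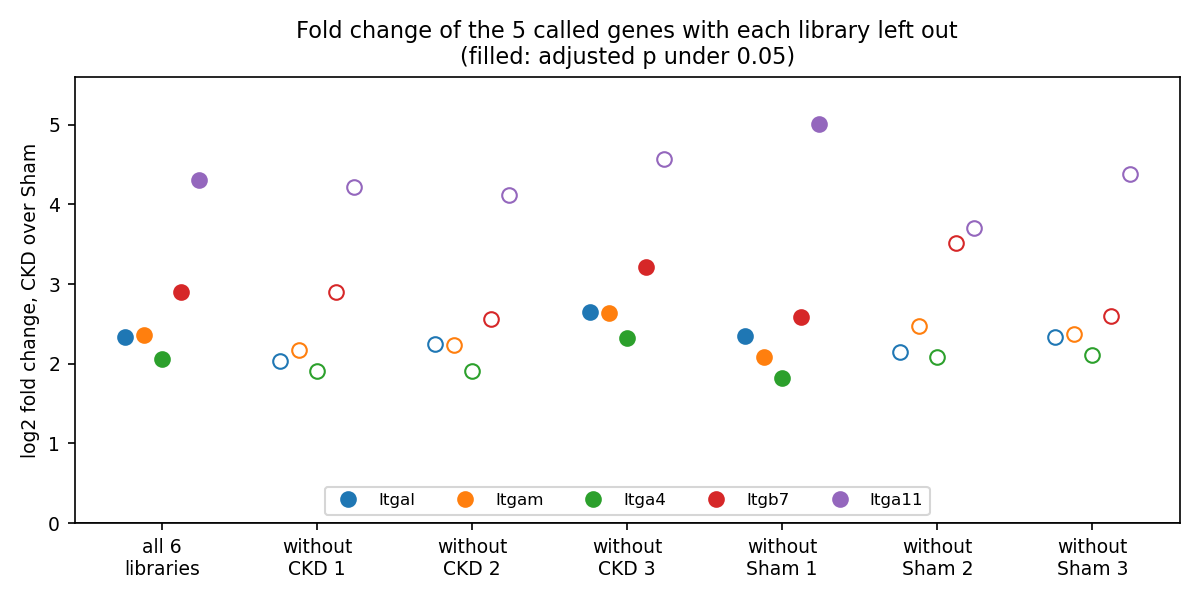
Log2 fold change of CKD over Sham (y axis) of the 5 called genes with all 6 libraries and with each library left out (x axis). Filled points have an edgeR adjusted p under 0.05: 5 with all libraries, 4 without CKD 3, 5 without Sham 1 and 0 in the other 4 fits, while all values lie above 1.8.

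Of 55 listed names of integrin ligands 53 were in the table and 46 were tested, with 7 higher and 0 lower in edgeR (unadjusted p under 0.05: 21 higher, 2 lower), 15.2% of those tested (3.82% of all genes). Their median log2 fold change was 1.10, against -0.01 over all genes. At an unadjusted p under 0.05 in edgeR, 13.5% of all genes were higher and 10.3% lower. Some ligands, among them Fgg, Icam5, Postn and Tnc, passed the low-count filter through the CKD libraries alone, and without such genes the median was 0.86 over 41 ligands and -0.06 over all genes. The 7 were Tgfb1 (latent TGF-beta1, bound by alphaVbeta6 and alphaVbeta8), C3 (whose fragment iC3b is bound by Mac-1), Fn1 (fibronectin), Fgb (a fibrinogen chain), Spp1 (osteopontin), Fbn1 (fibrillin-1) and Col1a1 (type I collagen). C3 averaged 78.6 ± 23.9 CPM in CKD and 14.6 ± 7.53 CPM in Sham, and Fgb 25.4 ± 20.3 CPM in CKD and 2.12 ± 1.25 CPM in Sham (SD, n = 3 each), with log2 fold changes of 2.43 ± 0.47 and 3.58 ± 0.69 (SE; both edgeR adjusted p = 0.0415). Tgfb1 averaged 50.9 ± 15.5 CPM in CKD and 14.5 ± 3.28 CPM in Sham (edgeR adjusted p = 0.0365). Fn1 averaged 341 ± 103 CPM in CKD and 86.0 ± 34.8 CPM in Sham, and Spp1 6219 ± 3222 CPM in CKD and 283 ± 295 CPM in Sham (edgeR adjusted p = 0.0415 and 0.0482). The matrix genes Fbn1 and Col1a1 averaged 111 ± 39.1 and 205 ± 62.4 CPM in CKD, against 18.3 ± 11.1 and 27.4 ± 23.1 CPM in Sham (edgeR adjusted p = 0.0492 and 0.0493). Without CKD 3 the ligand count was 4, and without Sham 1 it was 13 (11 higher, 2 lower), where 413 and 1711 of all genes were called.

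Other ligands of the chains above gave mixed values. The laminin chains Lama3 and Lamb3 had log2 fold changes of -0.22 ± 0.52 and 0.11 ± 0.45 (SE; edgeR adjusted p = 0.836 and 0.909). Icam1, bound by LFA-1, averaged 74.6 ± 30.2 CPM in CKD and 30.2 ± 14.3 CPM in Sham (SD, n = 3 each; edgeR adjusted p = 0.121). Vcam1, bound by alpha4beta1, averaged 35.6 ± 14.95 CPM in CKD and 16.5 ± 10.7 CPM in Sham (edgeR adjusted p = 0.298), and Npnt, nephronectin, 187 ± 31.1 CPM in CKD and 245 ± 141 CPM in Sham (edgeR adjusted p = 0.633). These 5 were picked after their values were seen.

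Of 61 listed names of further adhesion partners 60 were in the table and 59 were tested, with 4 higher and 0 lower in edgeR (unadjusted p under 0.05: 16 higher, 1 lower), or 6.78%, and a median log2 fold change of 0.27. Of all genes 3.82% were called, and 13.5% were higher and 10.3% lower at the unadjusted p, with a median of -0.01. Kank2, a talin-binding scaffold at the rim of adhesions, averaged 64.2 ± 2.18 CPM in CKD and 24.2 ± 4.68 CPM in Sham (SD, n = 3 each, log2 fold change 1.40 ± 0.21, SE, edgeR adjusted p = 0.0308). The actin crosslinkers Actn1 and Flna had log2 fold changes of 2.002 ± 0.37 and 1.80 ± 0.33 (both edgeR adjusted p = 0.0399). Actn1 averaged 99.7 ± 43.2 CPM in CKD and 24.9 ± 6.07 CPM in Sham, and Flna 308 ± 124 CPM in CKD and 88.6 ± 6.44 CPM in Sham. Flnc, the filamin of muscle, averaged 4.92 ± 2.26 CPM in CKD and 0.57 ± 0.32 CPM in Sham (log2 fold change 3.09 ± 0.60, edgeR adjusted p = 0.0415). Flnc had 149, 99 and 52 counts in CKD 1, 2 and 3, against 14, 5 and 6 counts in Sham 1, 2 and 3. It passed the low-count filter through the CKD libraries alone, and without it the median of the partners was 0.26. As with the members, 0 ligands and 0 partners passed in edgeR without CKD 1, CKD 2, Sham 2 or Sham 3. Of all genes 0, 0, 2 and 7 passed in these fits. Of the ligands 18, 18, 21 and 19 then had an unadjusted p under 0.05, and of the partners 12, 12, 19 and 17.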

How the data were processed

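RNA-seq libraries of rat renal tissue, 3 CKD and 3 Sham, were compared. The authors deposited raw counts per gene with their own gene lengths, and library columns were matched by sample title (0 columns of other series). Per the labels' protocols, RNA was extracted with TRIzol and libraries made with the VAHTS Universal V5 kit. Per the submitters' processing notes, the tools included fastp 0.20.1, HISAT2 2.1.0 and HTSeq 0.11.2, with Rnor_6.0 as the build. Whether counting used strand was not stated. Reads of overlapping genes (Pelo in Itga1, Cd63 in Itga7, Galk1 in Itgb4, for example) cannot be told apart.

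Here, low genes were removed with filterByExpr (count of 10, total of 15), the rest scaled by TMM and fitted with edgeR 4.0.16's robust quasi-likelihood test on the group alone (limma 3.58.1, R 4.3.3), with Benjamini-Hochberg adjustment over 15371 genes and a threshold of 0.05. CPM use the TMM-scaled total, and RPKM divides CPM by the authors' gene length. The standard error is the log2 fold change over the root of its F. The biological coefficient of variation was 37.5%. The procedure was tested on simulated data, where it recovered 4% of 2-fold and 45% of 4-fold changes, with 2 false calls. Many changes of these sizes would therefore be missed. No libraries looked like duplicates: pairs within a group had a chi-square over its degrees of freedom of 30.9 to 330.

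Values per library were given for members past the threshold, the 2 of smallest p in each role, and 13 fixed names. Itgax, Itgae, Itgad, Itga2, Itga10 and Fermt1 were added after their values were seen. Members, roles, lists and this rule were chosen with earlier results of these data known. Alternatives were RLE or no composition factors, no filter, DESeq2 1.42.0, limma-voom, a replicate block, removal of mitochondrial counts, and each library left out.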

Additional observations from a re-analysis of the deposited data

How the results depend on the processing

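Log2 fold changes of 27 of the 38 tested members kept their sign under all 13 alternatives, the 5 called genes among them, and the other 11 changed sign at least once. The number of members called was 11 (all higher) with library totals alone, 11 (10 higher, 1 lower) in DESeq2, 0 in limma-voom (17 at an unadjusted p under 0.05) and 0 with the replicate block (16), where the 5 called genes had an edgeR adjusted p of 0.0560 to 0.0886 in the block and a limma-voom adjusted p of 0.0580 to 0.0614. It ran from 0 to 9 with a library left out. For all genes the counts, 587 in the fit as reported, were 2228 (2047 higher), 2497, 195 and 10 in the same 4 settings, and 0 to 1711 with a library left out. For ligands, 7 as reported, they were 17, 21, 0 and 0, with 4 when mitochondrial counts were removed and 0 to 13 with a library left out. For partners, 4 as reported, they were 17, 12, 2 and 0, and 0 to 7 with a library left out. The cause of these differences was not tested.

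The sign turned in these values. With library totals alone Pxn was 0.24 and Itgb8 0.27. With RLE factors, DESeq2 and mitochondrial counts removed, Ptk2 was -0.0137, -0.0137 and -0.0124 and Parva -0.0141, -0.0141 and -0.0124. Without single libraries, Itgb8 ran from -0.47 to 0.052, Itga3 from -0.068 to 0.73, Ptk2 from -0.12 to 0.068, Itgb6 from -0.024 to 0.61, Parva from -0.21 to 0.26, Itga8 from -0.32 to 0.33, Itga7 from -0.38 to 0.66, Parvb from -0.11 to 0.42, Itgb3 from -0.18 to 0.31 and Itgae from -0.0064 to 0.60.

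Replicate numbers gave no sign of pairing the libraries. Deviations of same-numbered CKD and Sham libraries from their group means correlated at -0.206, 0.00452 and -0.157 for numbers 1, 2 and 3. Of the 6 libraries 0 correlated best with its own number, although CKD 2 was level between Sham 2 (0.00452) and Sham 3 (0.00458). With 3 libraries per group the deviations are tied to each other through the group mean, so these correlations cannot settle whether the numbers mark pairs. Why calls were lost in the block was not tested. Low counts in Sham limit the fold changes of Itga11 (8, 0 and 5 counts), Itga2 (0, 9 and 1), Itgb7 (10, 27 and 10) and Itgbl1 (24, 0 and 18). Itga10 and Itgad were too low to be tested. A difference that missed the threshold is not shown to be absent.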
